A study of Mus musculus with 35 samples.

Results

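A set of 10 genes of alcohol and aldehyde oxidation was followed in mouse liver after styrene inhalation: the alcohol dehydrogenase genes Adh1, Adh4, Adh5 and Adh7, and the aldehyde dehydrogenase genes Aldh1a1, Aldh1b1, Aldh2, Aldh3a2, Aldh7a1 and Aldh9a1. They are 10 of 17097 genes that the array annotation named alone on at least 1 probe set, and they were chosen by name. Where a gene had more than 1 probe set, the brightest on average was taken as its main one, and the others are given apart. The livers came from 35 adult male wild-type C57Bl/6 mice, an inbred laboratory strain, with 1 array per mouse. Each mouse sat alone in a cage and breathed air (0 ppm) or styrene at 1, 5, 10, 20, 40 or 120 ppm for 6 hours, and tissue was taken on the next morning. There were 5 mice in each of the 7 groups, and the labels call them biological replicates.

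Alcohol dehydrogenases are zinc enzymes that use NAD to turn alcohols into aldehydes, and aldehyde dehydrogenases carry the oxidation on to carboxylic acids. The liver holds large amounts of both, for ethanol, retinol, formaldehyde, amino acid breakdown and the aldehydes of fat. Styrene, the monomer of polystyrene, is oxidised to styrene oxide, which is opened to a glycol. Alcohol and aldehyde dehydrogenases then carry that glycol towards mandelic acid, which is excreted in urine. Which of the enzymes do so in mouse liver was not measured here.

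Adh5, Aldh1a1, Aldh3a2 and Aldh9a1 passed at least 1 test of dose, and each of the 4 was higher at 40 and 120 ppm together than at 1, 5 and 10 ppm. The rises were small, between 12.5% and 35.8% for 40 and 120 ppm together against 1, 5 and 10 ppm. Adh1, Adh4, Adh7, Aldh1b1, Aldh2 and Aldh7a1 passed no test on their main probe sets, and no member fell in any comparison. Values are on a log2 scale, so that a difference of 1 means a ratio of 2 to 1. A change was called when its adjusted p was under 0.05 by limma's moderated test with Benjamini-Hochberg adjustment over all 45037 probe sets. Many other probe sets were called as well, so the share called is given beside each count of members. Where arrays are said to lie above or below all arrays of another group, the share of all probe sets doing so was not counted. Such statements describe the member alone.

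Against air, none of the 10 members was called at 1 ppm, where 0.00444% of all probe sets were, at 5 ppm (0.153%), at 10 ppm (0%) or at 20 ppm (1.03%). At an unadjusted p under 0.05, the counts at these doses were 0, 0, 0 and 1 members. At 40 ppm 2 members rose and none fell, where 14.6% of probe sets were called and 9.73% were called higher. At 120 ppm 3 members rose and none fell, where 19.4% were called and 13% were called higher. The F test over the 7 groups called 4 members, against 20.4% of probe sets. The slope on log2(ppm + 1) called 4 members, all upward, against 32% of probe sets and 21.2% upward. The contrast of 40 and 120 ppm against 1, 5 and 10 ppm, which leaves out the air group, called 4 members, all higher, against 35.9% of probe sets and 23.3% higher. Where members were called, their shares were above those of all probe sets, though a share of 10 genes is coarse. The members are also brighter than most probe sets. Among the 22518 probe sets brighter than the median, 24.4% were called at 120 ppm (15.8% higher). In the contrast of dose ranges 42.6% of them were called (27.8% higher). The members were not tested as a set, so these counts are no result about the family as a whole. The median change of the 10 members was 0.04 at 40 ppm and 0.05 at 120 ppm, and the medians over all 17097 genes were 0.02 and 0.04.

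**Figure D1:**
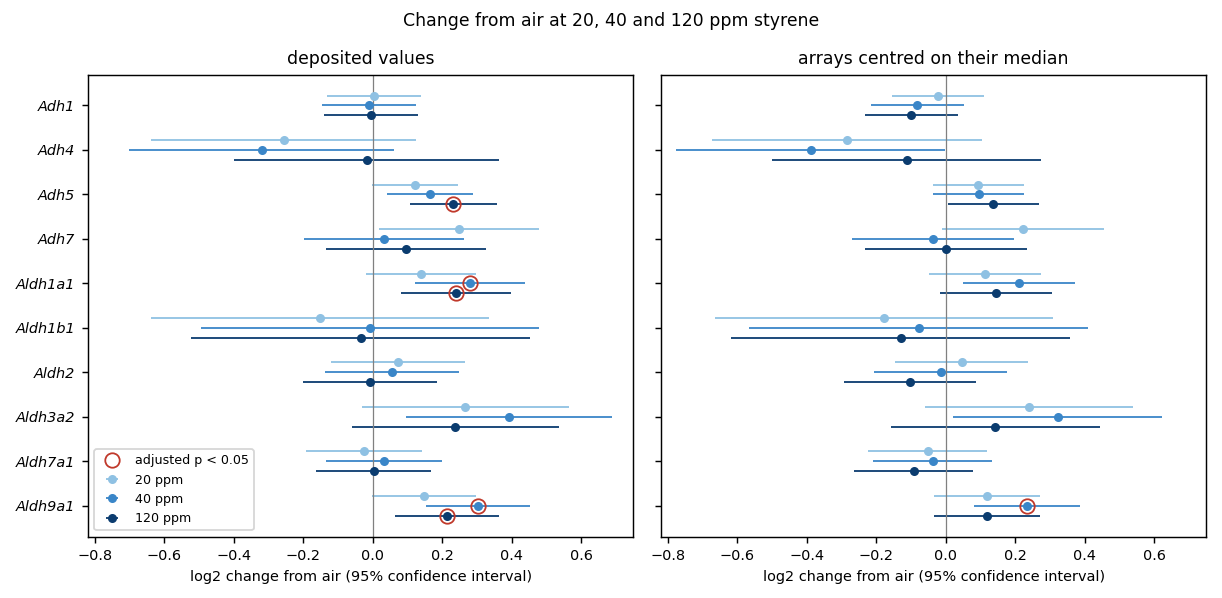
Change from air at 20, 40 and 120 ppm (5 arrays per group) for the main probe set of each of the 10 members, in log2 units with 95% intervals from the limma fit, on the deposited values (left) and with each array centred on its median (right). Red rings mark adjusted p under 0.05: 5 points on the left (Adh5 at 120 ppm, Aldh1a1 and Aldh9a1 at 40 and 120 ppm) and 1 on the right (Aldh9a1 at 40 ppm).

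Several features of the arrays moved with dose. The median of all probe sets was 3.50 in air, 3.57 at 40 ppm and 3.60 at 120 ppm. With every array centred on its median, the probe sets called at 120 ppm went from 5846 higher and 2881 lower to 2943 higher and 5560 lower. The gap between the 3' and 5' control probe sets of actin, which reads how far the RNA was copied, was 0.48 in air and between 0.71 and 0.72 from 20 ppm up. For Gapdh the same gap averaged 0.147 in air against 0.0299 in the 20 ppm group, 0.110 in the 40 ppm group and 0.120 in the 120 ppm group. The low mean at 20 ppm came from replicate 5, which read -0.402, while the other arrays of that group read 0.125 to 0.172. Counts of cell type markers called against air stand beside the shares of all genes. These were 8.74% higher and 6.24% lower at 40 ppm, and 11.2% higher and 7.99% lower at 120 ppm. Of 11 Kupffer cell markers, 4 fell at 40 ppm and 6 at 120 ppm. Their mean log2 level ranged from 6.97 to 7.98 in air and from 6.49 to 7.12 at 120 ppm. Of 8 hepatocyte markers, 1 rose and none fell at 120 ppm, and their mean level ranged from 12.80 to 12.85 in air and from 12.83 to 12.96 at 120 ppm. Of 6 periportal hepatocyte markers, 3 rose and none fell at 40 ppm, and 1 rose and 1 fell at 120 ppm. Their mean level ranged from 10.33 to 10.45 in air and, without overlap, from 10.48 to 10.66 at 40 ppm. Of 7 pericentral hepatocyte markers, 2 rose and 1 fell at 40 ppm and at 120 ppm. Their mean level was 10.23 in air, 10.16 at 40 ppm and 10.18 at 120 ppm. At 120 ppm 1 of 8 sinusoidal endothelial, 2 of 10 stellate cell and fibroblast and 1 of 3 erythroid markers fell. There 1 of 9 neutrophil and 2 of 7 T and B cell markers rose, and none of 6 bile duct markers was called. Of 7 exocrine pancreas markers, 1 rose and 2 fell at 40 ppm and 2 fell at 120 ppm, with a mean level of 4.18 in air, 3.84 at 40 ppm and 3.90 at 120 ppm. Of 4 lung markers, 2 fell and 0 rose at 40 ppm and at 120 ppm against air. Their mean level was 4.92 in air, where arrays ranged from 3.83 to 6.48. It was 3.61 to 3.91 in the groups from 1 to 20 ppm, 3.95 at 40 ppm and 4.08 at 120 ppm. The part of these features in the members' changes was not tested, apart from the centring. In whole tissue, fewer cells of a type and less RNA per cell cannot be told apart. The labels' title numbers run in blocks by dose. Whether they mark an order of handling is not given in the sources used here, and any such order and the dose cannot be told apart between groups. The array of the 5 ppm group's replicate 1 had a median correlation of 0.976 with the other arrays, against 0.984 or more in the rest. The contrast of dose ranges is given without it for the 4 members that rose and, for other genes, where its absence changed a count or a call. That fit was added for the other genes after the data had been seen.

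The promoter sequences of the 4 genes that rose, and of Adh1 as a neighbour of Adh5 that did not pass a test, are shown for their differences in base composition. They are the 250 bases before the annotated start in the RefSeq table (GRCm38.p6), written 5' to 3' on the gene's strand, and 8 of the 10 members had an entry. Aldh2 and Aldh7a1 were not among them. Capitals mark matches on either strand to the E-box CACGTG, the CCAAT box, the TATA box TATAAA and the Sp1 box GGGCGG. Adh5 and Aldh1a1 have 2 listed starts each, and the one further along the gene is shown.
Adh5 (chr3:138442843-138443092, + strand): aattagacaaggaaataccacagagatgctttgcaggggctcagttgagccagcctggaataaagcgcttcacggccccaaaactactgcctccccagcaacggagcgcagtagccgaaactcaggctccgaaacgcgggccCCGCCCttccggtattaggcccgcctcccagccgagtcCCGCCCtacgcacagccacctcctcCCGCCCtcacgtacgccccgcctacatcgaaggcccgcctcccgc
Aldh1a1 (chr19:20601718-20601967, + strand): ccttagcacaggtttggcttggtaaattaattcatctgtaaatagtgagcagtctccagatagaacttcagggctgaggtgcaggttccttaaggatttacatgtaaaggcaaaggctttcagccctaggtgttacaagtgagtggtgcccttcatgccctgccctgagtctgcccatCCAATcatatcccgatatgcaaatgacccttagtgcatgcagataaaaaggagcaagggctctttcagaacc
Aldh3a2 (chr11:61267187-61267436, - strand): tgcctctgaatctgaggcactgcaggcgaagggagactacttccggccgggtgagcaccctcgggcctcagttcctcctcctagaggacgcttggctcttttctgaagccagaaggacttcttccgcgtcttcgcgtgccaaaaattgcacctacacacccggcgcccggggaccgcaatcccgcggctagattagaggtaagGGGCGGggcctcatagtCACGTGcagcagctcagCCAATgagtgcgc
Aldh9a1 (chr1:167349741-167349990, + strand): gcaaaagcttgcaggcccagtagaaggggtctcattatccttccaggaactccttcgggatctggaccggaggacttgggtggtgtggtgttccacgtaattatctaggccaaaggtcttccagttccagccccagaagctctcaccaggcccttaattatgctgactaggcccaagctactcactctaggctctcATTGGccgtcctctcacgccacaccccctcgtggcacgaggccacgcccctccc
Adh1 (chr3:138277335-138277584, + strand): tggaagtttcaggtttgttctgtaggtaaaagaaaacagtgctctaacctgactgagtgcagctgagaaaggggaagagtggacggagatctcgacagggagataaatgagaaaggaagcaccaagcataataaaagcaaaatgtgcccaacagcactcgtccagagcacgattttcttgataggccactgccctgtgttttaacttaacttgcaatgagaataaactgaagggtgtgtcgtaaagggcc

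At the starts shown, the 4 genes that rose did not share a promoter type. The window of Adh5 had 63.6% G and C with 21 CpG sites and held 3 Sp1 boxes, that of Aldh3a2 61.2% with 18 CpG sites, and that of Aldh9a1 57.6% with 8. Aldh1a1 had 46.4% with 1 CpG site, close to the 44.8% of Adh1, and the median over 32851 promoters was 52.4%. The windows of the other listed starts differed. That of Adh5 had 45.2% with 2 CpG sites and no Sp1 box, also close to Adh1, and that of Aldh1a1 42.8% with 3 CpG sites. Aldh3a2 held the E-box, 30 bases before its start, next to a CCAAT box and an Sp1 box. No other entry of the members held that E-box, and 6.02% of all promoters did. A CCAAT box was found in 5 of the members' 10 entries and in 33.8% of all promoters, and an Sp1 box in 3 and in 32.7%. A TATA box was found in 2 entries, of Adh5's other start and Adh7, 207 and 202 bases before the start, and in 12.4% of all promoters. The core of the antioxidant response element, TGACNNNGC, was found in Aldh9a1 only, 87 bases before its start, and in 10.2% of all promoters. The nuclear receptor motif AGGTCA was found in Adh4 only, and in 14% of all promoters. The C/EBP core TTGCNNAA was found in Adh7 and in the other entry of Aldh1a1, and in 9.56% of all promoters. A match describes these letters and is not a binding site.

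**Figure D2:**
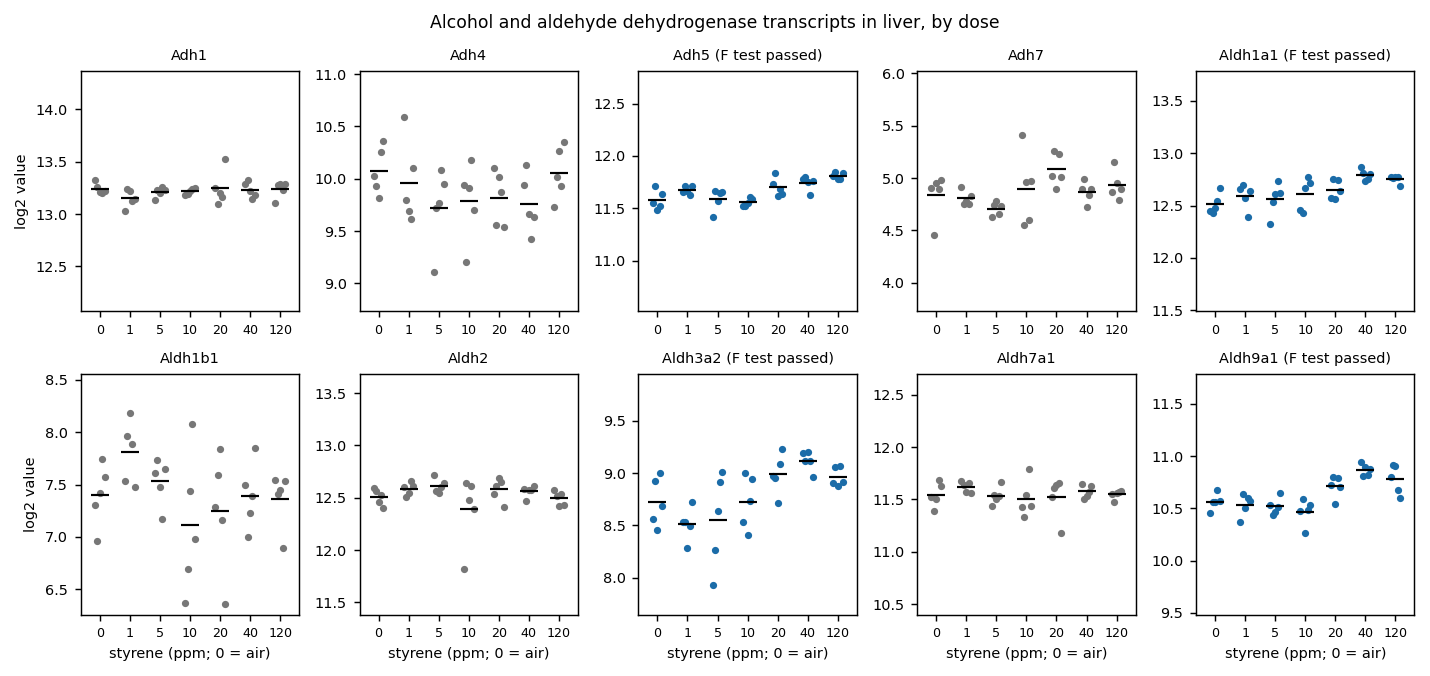
Level of the 10 members by styrene dose on the deposited log2 scale, with a dot for each of the 35 arrays and a bar for the mean of each group of 5; the axes span the same range but start at different values, and blue panels mark the 4 members called by the F test. All 5 arrays at 120 ppm lie above all air arrays for Adh5 and Aldh1a1, and the arrays of Adh1, Aldh2 and Aldh7a1 overlap across the 7 groups. The share of all probe sets that separate in this way was not counted.

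Adh5 is the alcohol dehydrogenase that oxidises formaldehyde bound to glutathione, and it also reduces nitrosoglutathione. In air its 5 arrays read 11.55, 11.71, 11.48, 11.52 and 11.63. At 1 ppm they read 11.65, 11.71, 11.67, 11.62 and 11.71, at 5 ppm 11.41, 11.67, 11.57, 11.64 and 11.65, and at 10 ppm 11.52, 11.52, 11.55, 11.61 and 11.59. All 3 of these low-dose groups overlapped air. At 20 ppm the arrays read 11.73, 11.83, 11.62, 11.68 and 11.63, at 40 ppm 11.78, 11.80, 11.75, 11.62 and 11.76, and at 120 ppm 11.81, 11.85, 11.78, 11.78 and 11.84. Of the 5 arrays in each group, 2 at 20 ppm, 4 at 40 ppm and all 5 at 120 ppm were above the highest air array. The mean rose from 11.58 ± 0.09 in air (SD, n = 5) to 11.81 ± 0.03 at 120 ppm (SD, n = 5), a change of 0.23 ± 0.06 (SE) or 17.4% (limma, adjusted p = 0.00791). At 40 ppm the change was 0.16 ± 0.06 (adjusted p = 0.0659). From 10 to 20 ppm it was 0.14, with an adjusted p of 0.412. Over 40 and 120 ppm against the 3 lowest doses it was 0.17 ± 0.04 (adjusted p = 0.00115), or 0.16 without the 5 ppm replicate 1 (adjusted p = 0.00213). With arrays centred on their median, neither of these Adh5 calls was kept: the changes were 0.14 at 120 ppm (adjusted p = 0.132) and 0.10 in the contrast of dose ranges (adjusted p = 0.0515).

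Aldh1a1 is a cytosolic enzyme that oxidises retinaldehyde to retinoic acid and clears aldehydes of lipid peroxidation. Its air arrays read 12.45, 12.42, 12.48, 12.55 and 12.67. At 1 ppm they read 12.66, 12.70, 12.58, 12.39 and 12.63, at 5 ppm 12.32, 12.53, 12.61, 12.73 and 12.62, and at 10 ppm 12.46, 12.43, 12.67, 12.77 and 12.72. The spread within these groups was wide, and all overlapped air. At 20 ppm the arrays read 12.57, 12.75, 12.56, 12.74 and 12.64, at 40 ppm 12.87, 12.81, 12.74, 12.75 and 12.80, and at 120 ppm 12.77, 12.76, 12.77, 12.77 and 12.68. Every array at 40 and at 120 ppm was above the highest air array, and the spread was narrower than in air, with an SD of 0.05 and 0.04 against 0.10. The change was 0.28 ± 0.08 (SE) at 40 ppm, or 21.4% (limma, adjusted p = 0.0141), and 0.24 ± 0.08 at 120 ppm, or 18% (adjusted p = 0.0285). From 40 to 120 ppm it was -0.04 (adjusted p = 1). In the contrast of dose ranges Aldh1a1 was 0.19 ± 0.05 higher (adjusted p = 0.00445), with all 10 arrays at 40 and 120 ppm above the median of the 15 low-dose arrays and 6 above the highest. Without the 5 ppm replicate 1 that difference was 0.17 (adjusted p = 0.00784). With arrays centred on their median the changes were 0.21 at 40 ppm (adjusted p = 0.067), 0.14 at 120 ppm (adjusted p = 0.2) and 0.12 between dose ranges (adjusted p = 0.0675), none of them called. The call at 120 ppm was kept in 4 of the 10 fits that left out 1 of its arrays, with adjusted p up to 0.0703, and the F test's call (adjusted p = 0.0489) in 10 of 35 such fits.

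Aldh3a2, the fatty aldehyde dehydrogenase of the endoplasmic reticulum and peroxisomes, oxidises long-chain aldehydes, and its loss in humans causes Sjogren-Larsson syndrome. Its air arrays read 8.56, 8.93, 8.46, 9.0 and 8.68. At 1 ppm they read 8.54, 8.53, 8.28, 8.50 and 8.72, at 5 ppm 7.93, 8.27, 8.64, 8.91 and 9.01, and at 10 ppm 8.54, 9.0, 8.40, 8.74 and 8.95. The 5 ppm group was the most scattered, from 7.93 in its replicate 1 to 9.01. At 20 ppm the arrays read 8.97, 8.95, 8.71, 9.09 and 9.23, at 40 ppm 9.19, 9.12, 9.20, 9.11 and 8.96, and at 120 ppm 8.91, 9.06, 8.87, 9.07 and 8.91. Both high-dose groups overlapped air, with 4 arrays at 40 ppm and 2 at 120 ppm above the highest air array. Against air the change was 0.39 ± 0.15 (SE) at 40 ppm (limma, adjusted p = 0.0664) and 0.24 ± 0.15 at 120 ppm (adjusted p = 0.255), so neither was called. Against the 3 lowest doses, 40 and 120 ppm together were 0.44 ± 0.09 higher, or 35.8% (adjusted p = 5e-04), with all 10 arrays above the median of the 15 low-dose arrays and 6 above the highest. Without the 5 ppm replicate 1 this Aldh3a2 difference was 0.39 (adjusted p = 0.000508). The F test (adjusted p = 0.00962) and the slope of 0.07 for each step of 1 in log2(ppm + 1) (adjusted p = 0.00443) called it too. The calls of Aldh3a2 by these 3 tests were kept under every alternative run, the centring of arrays on their median included, and in every fit without 1 array. For the order of title numbers within groups, no probe set of a member was called, against 2.32% of all probe sets. Aldh3a2 had the only unadjusted p under 0.05 among the 10 main probe sets, with 0.06 per place (adjusted p = 0.29).

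Aldh9a1 oxidises trimethylaminobutyraldehyde, a step of carnitine synthesis. Its air arrays read 10.46, 10.56, 10.56, 10.68 and 10.57. At 1 ppm they read 10.37, 10.64, 10.51, 10.60 and 10.57, at 5 ppm 10.53, 10.44, 10.46, 10.52 and 10.65, and at 10 ppm 10.47, 10.59, 10.27, 10.49 and 10.53. None of these 15 arrays was above the highest air array. At 20 ppm the arrays read 10.72, 10.80, 10.54, 10.79 and 10.71, at 40 ppm 10.94, 10.81, 10.89, 10.82 and 10.88, and at 120 ppm 10.80, 10.92, 10.90, 10.67 and 10.60. Above the highest air array were 4 of 5 at 20 ppm, all 5 at 40 ppm and 3 of 5 at 120 ppm. The change from air was 0.15 ± 0.07 (SE) at 20 ppm (limma, adjusted p = 0.424), 0.30 ± 0.07 at 40 ppm, or 23.3% (adjusted p = 0.00557), and 0.21 ± 0.07 at 120 ppm, or 15.9% (adjusted p = 0.0384). The call at 120 ppm was kept in 3 of 10 fits without 1 of its arrays, with adjusted p up to 0.106, and was lost once each array was centred (0.12, adjusted p = 0.276). The call at 40 ppm was kept in all 10 such fits and with centring (0.23, adjusted p = 0.034). Against the 3 lowest doses Aldh9a1 was 0.31 ± 0.05 higher at 40 and 120 ppm (adjusted p = 6.7e-06), with 9 of 10 arrays above the highest of the 15, and 0.32 without the 5 ppm replicate 1. Its F test had the smallest adjusted p among the members, 0.000455.

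The order of the group means differed between these genes, but neighbouring doses were not told apart. For Adh5 the means ran from 11.56 at 10 ppm through 11.70 at 20 ppm and 11.74 at 40 ppm to 11.81 at 120 ppm. For Aldh9a1 they ran from 10.47 at 10 ppm to 10.71 at 20 ppm and 10.87 at 40 ppm, with 10.78 at 120 ppm. For Aldh1a1 and Aldh3a2 the mean at 40 ppm was also above that at 120 ppm. Between 10 and 20 ppm none of the members was called, where 0.349% of probe sets were, and 2 members, Adh5 and Aldh9a1, had an unadjusted p under 0.05. Between 20 and 40 ppm none was called (0.373% of probe sets), and Aldh9a1 had an unadjusted p under 0.05. Between 40 and 120 ppm none was called (0.0244% of probe sets) or had an unadjusted p under 0.05. The change of Aldh9a1 from 10 to 20 ppm was 0.24 ± 0.07 (SE; limma, adjusted p = 0.155).

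The members that passed no test included the enzymes best known for ethanol. Adh1, the main alcohol dehydrogenase of liver for ethanol and retinol, had means of 13.24 ± 0.05 in air and 13.24 ± 0.08 at 120 ppm (SD, n = 5 each). Its change at 120 ppm lay between -0.14 and 0.13 (95% interval). Aldh2, the mitochondrial enzyme that clears acetaldehyde, had 12.51 ± 0.08 and 12.50 ± 0.07, with a change between -0.20 and 0.18. At 10 ppm replicate 1 of Aldh2 read 11.82, below the other 4 arrays of its group, which read 12.40 to 12.64. Aldh7a1, which oxidises aminoadipic semialdehyde in lysine breakdown, had a change at 120 ppm of 0.00, between -0.16 and 0.17. The upper bounds of these 3 genes were below the fitted changes of Adh5, Aldh1a1 and Aldh9a1 at 120 ppm, which have errors of their own.

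Adh4, an alcohol dehydrogenase of liver that also takes up long-chain and retinoid alcohols, was read less precisely. Its air arrays ranged from 9.81 to 10.36, and its change was -0.32 ± 0.19 (SE) at 40 ppm (limma, adjusted p = 0.256) and -0.02 at 120 ppm (adjusted p = 0.958). Aldh1b1, a mitochondrial relative of Aldh2, ranged from 6.36 to 8.18 over the 35 arrays, and its change at 120 ppm lay between -0.52 and 0.45. Adh7, the alcohol dehydrogenase of stomach and other epithelia, had means of 4.84 in air, 5.09 at 20 ppm and 4.93 at 120 ppm. Its change of 0.25 at 20 ppm had an unadjusted p of 0.0364 and an adjusted p of 0.362, and was the 1 member's change at that dose under 0.05 before adjustment. Of 9 markers of stomach and squamous epithelium, none was called at 40 or 120 ppm against air, 3 rose and 1 fell between dose ranges, and their mean log2 level was 3.30 in air and 3.40 at 120 ppm. Over all genes, 23.9% rose and 13.9% fell between dose ranges.

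The 10 genes have 15 probe sets, and for Aldh2 and Aldh7a1 a dimmer probe set each was called by a test that did not call the main one. The difference between probe sets of a gene was not tested. Aldh2 has 2 further probe sets with means of 7.42 and 5.41. The brighter of these had a slope of 0.06 (limma, adjusted p = 0.0467) and a change of 0.45 at 120 ppm (adjusted p = 0.102), and the dimmer one a change of -0.17 (adjusted p = 0.364), beside -0.01 for the main probe set. Aldh7a1 has 2 further probe sets with means of 4.33 and 4.12. The dimmer of these was 0.23 higher at 40 and 120 ppm than at the 3 lowest doses (adjusted p = 0.0486) and had a slope of 0.04 (adjusted p = 0.0477). Without the 5 ppm replicate 1 the first of these calls was lost (0.19, adjusted p = 0.0841) and the slope's was kept (adjusted p = 0.0444). The other had a change of 0.02 at 120 ppm. The second probe set of Adh7, with a mean of 3.15, had a change of -0.06 at 120 ppm. The place of the title number within groups had an unadjusted p under 0.05 in 3 of these further probe sets, with 0.10 per place for the brighter one of Aldh2 (limma, adjusted p = 0.0865), 0.06 for the dimmer one of Aldh7a1 (adjusted p = 0.208) and -0.06 for that of Adh7 (adjusted p = 0.35). Whether these probe sets read different transcript ends was not tested.

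**Figure D3:**
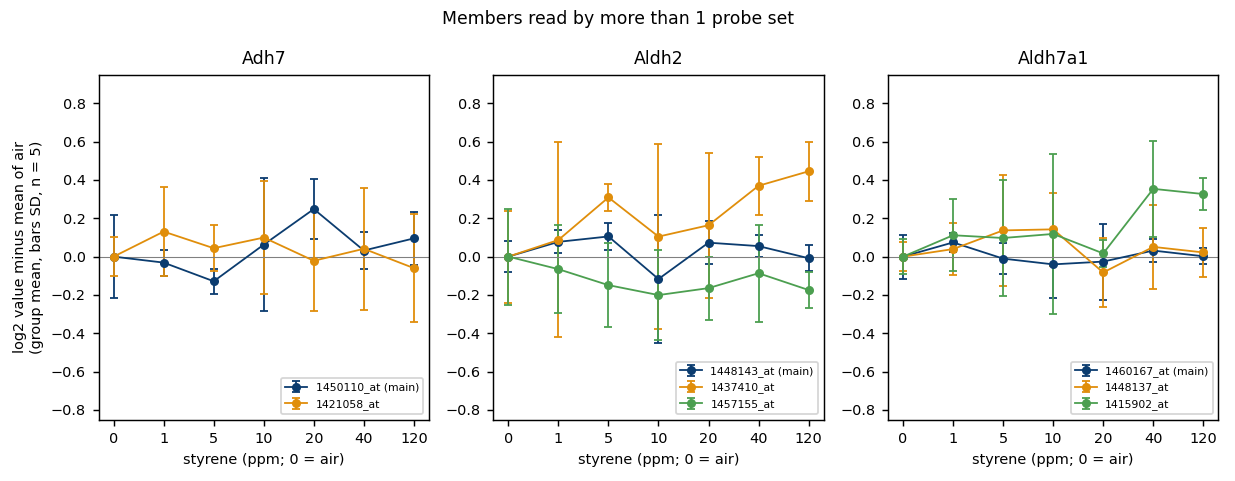
Difference from the mean of air (log2) by styrene dose for every probe set of the 3 members with more than 1 (Adh7, Aldh2 and Aldh7a1), as group means with SD bars (n = 5 arrays each). At 120 ppm the 3 probe sets of Aldh2 lie at -0.01 (main), 0.45 and -0.17.

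The alcohol dehydrogenase genes lie side by side on chromosome 3, in the order Adh7, Adh1, Adh6a, Adh6b, Adh4 and Adh5 in the RefSeq gene table, with Metap1 after Adh5. Within that cluster Adh5, at its end, was called at 120 ppm and Adh1, Adh4, Adh6a and Adh7 were not. Adh6a had a change of -0.01 at 120 ppm and Metap1, a methionine aminopeptidase, of 0.02. Adh6b was not analysed here. Whether Adh5 changed differently from its neighbours was asked of the differences between members within each array. Such differences stay the same when all values of an array shift by the same amount, but can change under other scalings. This test was chosen after the values had been seen. The difference Adh1 minus Adh5 shifted by -0.24 at 120 ppm and by -0.18 at 40 ppm, with all 5 arrays of each dose below every air array. The exact permutation test over 252 divisions of the arrays gave p = 0.00794 for both, which is the smallest p it allows, and an adjusted p of 0.0556 over 42 pair tests. The other neighbours are given beside it. Adh4 minus Adh5 shifted by -0.48 at 40 ppm, with 4 of 5 arrays below every air array (exact permutation p = 0.0159, adjusted p = 0.0833), and by -0.25 at 120 ppm, with 3 of 5 below (exact permutation p = 0.143, adjusted p = 0.273). Adh5 minus Adh7 shifted by 0.13 at 40 ppm and 0.14 at 120 ppm, with none of the arrays outside the range of air (exact permutation p = 0.373 and 0.349, adjusted p = 0.58 for both). None of the 42 pair tests passed after adjustment. Pairs at the smallest p that the test allows had an adjusted p of 0.0556, so with 5 arrays per group they had no lower p to reach. This outcome does not show that those pairs moved alike. The pair of Aldh1a1 and Aldh7a1 had shifts of 0.25 at 40 ppm and 0.24 at 120 ppm with the same exact p of 0.00794, and so did Aldh2 minus Aldh9a1 (-0.25) and Aldh7a1 minus Aldh9a1 (-0.27) at 40 ppm.

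For each of the 4 members called by the F test, the 3 other genes with the most similar pattern over the 35 arrays were listed by Pearson's r. These values describe the arrays, which share dose groups and scaling. For Aldh1a1 they were Akr1d1, the bile acid and steroid reductase (r = 0.928), Bche, butyrylcholinesterase (0.927), and Mospd2 (0.901). Akr1d1 was 1.04 higher and Bche 1.12 higher at 120 ppm (limma, adjusted p = 0.0101 and 0.00147), beside 0.24 for Aldh1a1. For Aldh3a2 they were Acadl, an acyl-CoA dehydrogenase of fatty acid oxidation (0.901), Eci2, an enoyl-CoA isomerase (0.836), and Nnt, the mitochondrial transhydrogenase (0.832). For Aldh9a1 they were Mgmt, which repairs alkylated guanine (0.901), the glutathione transferase Gstt2 (0.897) and Inca1 (0.89). For Adh5 they were the chromatin protein gene Hmgb1 (0.862), Abracl (0.855) and the noncoding RNA Firre (0.839).

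Other genes of the same reactions were read in lists drawn up from textbook roles, with earlier results of these data known. The counts describe these lists and are not a test of them. In the contrast of 40 and 120 ppm against 1, 5 and 10 ppm, 23.9% of all genes were called higher and 13.9% lower, with a median change of 0.04. Centring each array turned that split from 4080 higher and 2382 lower genes to 2611 higher and 3813 lower, so the centred counts of a list are given where they differ. At 120 ppm against air, 11.2% of all genes were called higher and 7.99% lower. Centring turned that split from 1917 higher and 1366 lower genes to 973 higher and 2518 lower. Of 14 other aldehyde dehydrogenase genes, 4 rose and 1 fell between dose ranges, or 4 and 2 with centring, with a median of 0.10. Aldh6a1, which acts in valine breakdown, was 0.47 ± 0.10 (SE) higher at 120 ppm than in air (limma, adjusted p = 0.00157). Aldh16a1 was 0.46 higher (adjusted p = 0.0159), and Aldh5a1, which clears succinic semialdehyde, 0.22 higher (adjusted p = 0.0407). The call of Aldh16a1 was lost with centring (0.37, adjusted p = 0.0581), and so was that of Aldh5a1 (0.13, adjusted p = 0.266). Aldh3b1, an enzyme for medium and long-chain aldehydes, fell by 0.60 (adjusted p = 0.00177). Of 3 further alcohol dehydrogenase relatives, Adhfe1 (0.36, adjusted p = 0.00272) and the quinone reductase Cryz (0.29, adjusted p = 0.000878) rose in the contrast of dose ranges. Neither was called at 120 ppm against air.

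Of 15 aldo-keto and carbonyl reductases, 5 rose and none fell between dose ranges, or 5 and 2 with centring, with a median of 0.14. Many of these enzymes run the opposite reaction from aldehyde or ketone to alcohol, but the steroid reductase Akr1d1 does not. At 120 ppm against air, Akr1d1 rose by 1.04 (limma, adjusted p = 0.0101) and Dcxr, a carbonyl reductase, by 0.56 (adjusted p = 0.00123). Cbr4 rose by 0.54 (adjusted p = 0.0212), or 0.45 and no call with centring (adjusted p = 0.0599). Akr1b8 fell by 0.33 (adjusted p = 0.0427). Of 17 genes of retinoid oxidation and handling, 3 rose and 3 fell between dose ranges, or 2 and 3 with centring, and 2 and 3 without the 5 ppm replicate 1. The retinol dehydrogenases Rdh9 (1.14, adjusted p = 0.000412) and Rdh16 (0.77, adjusted p = 0.0094) rose at 120 ppm. Dhrs3, which turns retinaldehyde back into retinol, fell by 0.39 (adjusted p = 0.0125), and Stra6l, a retinol-binding protein receptor, by 0.55 (adjusted p = 0.000436). Of 5 aldehyde oxidase and molybdenum cofactor genes, 2 rose and 1 fell between dose ranges, or 1 and 2 with centring and 2 and 2 without the 5 ppm replicate 1, and the oxidases Aox3 and Aox1 fell at 120 ppm by 0.51 and 0.39 (adjusted p = 0.0485 and 0.0402). After a second quantile normalization the call of Aox3 was lost (adjusted p = 0.0502). Mocs1, a molybdenum cofactor gene, rose by 0.45 at 120 ppm (adjusted p = 0.0228). That call was lost with centring (adjusted p = 0.0711) and after the second quantile normalization (adjusted p = 0.146). Of 5 ethanol and acetate genes, 1 rose and 1 fell between dose ranges, or 1 and 2 with centring, and Cyp2e1, the P450 of ethanol and styrene, rose by 0.21 at 120 ppm (adjusted p = 0.00628), or 0.12 and no call with centring (adjusted p = 0.141).

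The list around the reaction of Aldh9a1 held 9 measured genes of carnitine and lysine steps, and was written with earlier results of these data known. All 9 rose between dose ranges, with a median of 0.31, or 5 with arrays centred on their median, 8 after a second quantile normalization and 8 without the 5 ppm replicate 1. Against air 4 of the 9 rose at 120 ppm and none fell, or 2 with centring and 3 after the second quantile normalization. Over all genes, 11.2% rose and 7.99% fell at that dose. Tmlhe, the hydroxylase that opens carnitine synthesis, rose by 0.66 ± 0.19 (SE; limma, adjusted p = 0.0129), or by 0.49 after the second quantile normalization, where it was not called (adjusted p = 0.0623). Bbox1, which carries out its last step, was 0.54 higher between dose ranges (adjusted p = 4.97e-05), and Slc22a5, the carnitine transporter, 0.76 higher (adjusted p = 7.78e-05). In lysine breakdown, the pathway of Aldh7a1, Dhtkd1 rose by 0.94 at 120 ppm (adjusted p = 0.000599). Aass, which starts that breakdown, rose by 0.42 (adjusted p = 0.027, or 0.0858 with centring). Pipox rose by 0.27 (adjusted p = 0.037, or 0.182 with centring). The main probe set of Aldh7a1 stood at 0.00.

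Of 10 genes of formaldehyde and one-carbon steps, the setting of Adh5, 4 rose and 1 fell between dose ranges, or 2 and 1 with centring, with a median of 0.09. Dmgdh, which releases formaldehyde from dimethylglycine, rose by 0.45 at 120 ppm (limma, adjusted p = 0.0192, or 0.0656 with centring), Shmt1 by 0.29 (adjusted p = 0.0227, or 0.143 with centring), and Gsr, the glutathione reductase, fell by 0.37 (adjusted p = 0.00201). Of 20 measured targets of the fatty acid receptor PPARA, a class to which Aldh3a2 is known to belong, 9 rose and 3 fell between dose ranges, or 8 and 3 with centring and 9 and 2 without the 5 ppm replicate 1, with a median of 0.39. At 120 ppm against air 8 rose and 3 fell, or 7 and 5 with centring, with a median of -0.09, so the median and the count differed in sign. The shares over all genes at that dose were 11.2% higher and 7.99% lower. Acot3, a peroxisomal thioesterase, rose by 4.07 (adjusted p = 0.000137) and Cpt1a, the gate of mitochondrial fat oxidation, by 0.82 (adjusted p = 0.000565). Cyp4a10 rose by 1.42 (adjusted p = 0.0127) and Vnn1 by 1.19 (adjusted p = 0.0128). Of 14 genes of styrene and aromatic acid steps, 5 rose and 4 fell between dose ranges, or 4 and 4 with centring. At 120 ppm against air 2 rose and 4 fell, or 1 and 7 with centring. The largest change was in Acsm3, which rose by 0.97 (adjusted p = 0.00354, or 0.00812 with centring). Ephx1, the microsomal epoxide hydrolase upstream of the glycol, fell by 0.52 at 120 ppm (adjusted p = 0.00801). Hgd fell by 0.22 (adjusted p = 0.0459, or 0.0741 after the second quantile normalization). Cyp2f2, another P450 known to oxidise styrene, fell by 0.29 (adjusted p = 0.00138), or by 0.39 with centring (adjusted p = 5.17e-05) and by 0.32 after the second quantile normalization (adjusted p = 0.00155).

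**Figure D4:**
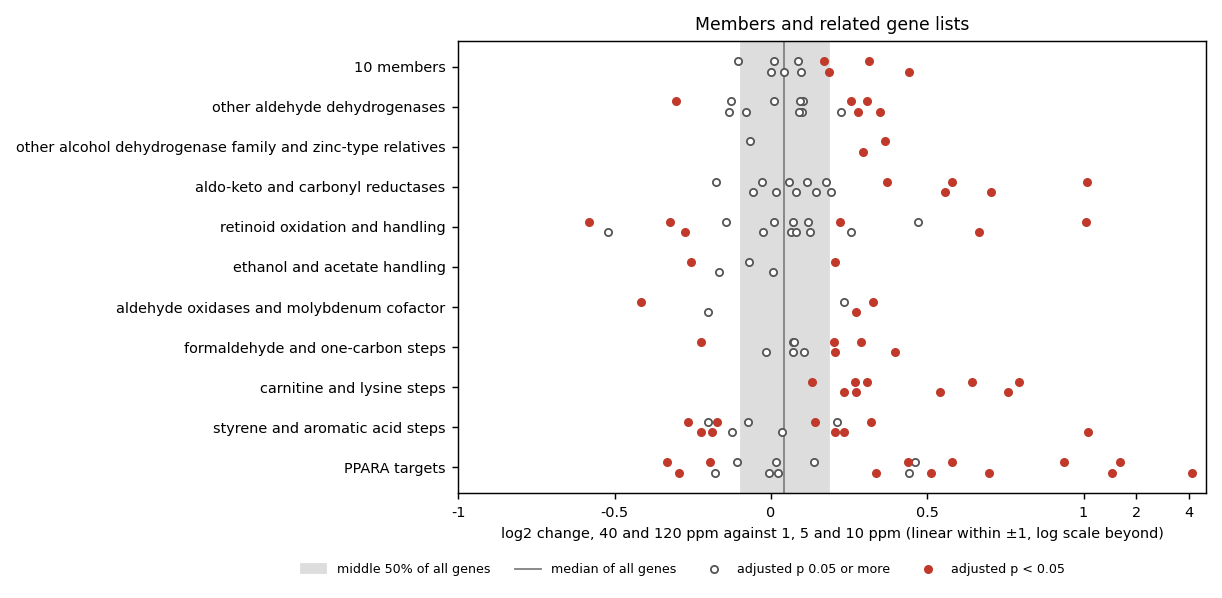
Log2 change between 40 and 120 ppm (10 arrays) and 1, 5 and 10 ppm (15 arrays) of each gene in the 10 members and 10 related lists, on an axis that is linear within 1 of 0 and logarithmic beyond; filled red dots have a limma adjusted p under 0.05, and the grey band holds the middle 50% of all genes. All 9 carnitine and lysine genes are red and above 0, while the retinoid list has 3 red dots on each side. The lists were written with earlier results of these data known.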

How the data were processed

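Total RNA was isolated from liver by Trizol and column cleanup and hybridised as biotinylated target to Affymetrix arrays that read the 3' ends of transcripts, per the labels' protocols. The deposited table gives 1 log2 value per probe set and array for 35 arrays, and RMA and Partek are the tools in the submitters' processing notes, which give no versions. The log base is not given in the sources used here, and was taken as 2 because the values span 1.74 to 14.23. No normalization was added. Without detection calls, the number of arrays limits the precision, and probe sets of low value are limited by noise.

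Of 45141 probe sets, 104 controls were left out, which left 45037. Of these, 28898 carried 1 gene symbol in GEO's platform annotation, 551 several and 15588 none, and the 17097 genes were each read from the probe set with the highest mean. A single limma model (version 3.58.1, R 4.3.3) with 7 group means was fitted to all probe sets, with 28 residual and 5.41 prior degrees of freedom, and p-values were adjusted over all of them by the Benjamini-Hochberg method. Contrasts were each dose against air, neighbouring doses from 10 ppm up, and 40 and 120 ppm against 1, 5 and 10 ppm. A slope on log2(ppm + 1) and an F test over the groups were added. The fits were run on simulated data in which a small set of probe sets was shifted at 120 ppm and no array was shifted as a whole. Such data cannot show how the calls behave when array medians move with dose. The rule for named genes was all 10 members, the 3 genes most similar to each member called by the F test, and from each related list up to 4 genes called at 120 ppm with the largest change. Genes named from the contrast of dose ranges alone (Adhfe1, Cryz, Bbox1, Slc22a5) and neighbours of Adh5 were chosen after their values were seen. The members and lists were chosen with earlier results of these data known. Each dose comparison with air uses the same 5 air arrays. The labels give replicate numbers, which the main fit did not use. Over 105 same-numbered pairs from different groups the mean correlation of deviations was 0.03, with 31 above 0.1. Over 420 differently numbered pairs it was -0.007, with 94 above 0.1. Promoter sequences are from RefSeq (GRCm38.p6), and the build behind the array annotation is not given in the sources used here.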

Additional observations from a re-analysis of the deposited data

Results flagged for a closer look

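Of 70 member and dose groups of 5 arrays, 6 held an array that stood apart from the other 4 by Dixon's criterion, where chance alone gives about 1 in 20. All 6 were low values. Adh5 read 11.62 in replicate 4 at 40 ppm, where the next array read 11.75. Aldh1a1 read 12.68 in replicate 5 at 120 ppm, with the other 4 arrays between 12.76 and 12.77. Aldh2 read 12.47 in replicate 2 at 40 ppm, Aldh1b1 6.89 in replicate 4 at 120 ppm, Adh7 4.45 in replicate 2 of air, and Aldh7a1 11.18 in replicate 5 at 20 ppm. The arrays differ between the genes, so no array was low in more than 1 of these 6.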

How the results depend on the processing

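With arrays centred on their median, the members called went from 3 to 0 at 120 ppm, from 2 to 1 at 40 ppm, from 4 to 2 for 40 and 120 ppm against 1, 5 and 10 ppm, and from 4 to 2 by the F test; the slope kept 3 of 4. With array weights the count rose to 4 at 40 ppm, where Adh5 and Aldh3a2 joined, and to 1 between 10 and 20 ppm, where Aldh9a1 had 0.29 (limma, adjusted p = 0.0383). Leaving out each array in turn gave 1 to 3 members at 120 ppm, 2 to 3 at 40 ppm, 3 to 4 by the F test, 4 to 4 by the slope and in the contrast of dose ranges, and 0 to 0 elsewhere. The lowest count at 120 ppm, 1, came without air replicate 1, 2 or 3 or 120 ppm replicate 1 or 3, which each removed Aldh1a1 and Aldh9a1. With the replicate number as a block, 3 members were called at 40 ppm (Aldh3a2 joined, adjusted p = 0.0436), 3 at 120 ppm and 3 by the F test (Aldh1a1 left, adjusted p = 0.0639), and 8 of 35 arrays correlated best with their own number. The other settings were a second quantile normalization, an intensity-dependent prior, a filter on dim probe sets, the mean of a gene's probe sets, the place of the title number and a fit of the compared groups alone. Over 520 values of single members under other settings, 499 kept their side of the threshold, 13 lost the call and 8 gained it, and no called value changed sign. Over 1250 values without 1 array, 38 lost and 3 gained the call. The cause of these changes was not tested. Aldh3a2 and Aldh9a1 kept their calls by the F test, the slope and the contrast of dose ranges throughout.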
